A study of Mus musculus with 9 samples.

Results

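The genes described here encode histones. They are the rows of the mouse count table whose symbol begins with Hist1h, Hist2h, Hist3h or Hist4h and that had any read, together with 4 histone genes outside the clusters: H2afx, H2afz, H3f3a and H3f3b. The table holds 24505 genes, and 73 of its rows met the symbol rule. Of these, 57 had a read in at least 1 library (53 clustered genes and the 4 others), and 16 clustered genes had none in any of the 9 libraries. The cells came by sorting from testes of Uchl1-EGFP mice, whose spermatogonia and early spermatocytes carry a green fluorescent protein driven by the Uchl1 transgene, outcrossed to CD-1. All mice received the RA (retinoic acid) synthesis inhibitor WIN 18,446 at 100 µg per g of body weight daily from P1, and a subcutaneous injection of 10 µl of RA at 10 µg/µl in DMSO at P11, so that a synchronized wave of spermatogonia entered differentiation. The groups had 3 libraries each. In/B were intermediate and type B spermatogonia with bright EGFP at P17. RA-sufficient PL were preleptotene spermatocytes with dim EGFP at P19, from mice given no WIN 18,446 after RA. RA-deficient PL were cells at P19 from mice that went on receiving WIN 18,446 every day. Litters were pooled, and the methods name 2 or 3 independent cell preparations, so that p-values measure the spread between libraries, part of which may be technical. There was no germ cell group without the inhibitor and the RA injection.

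Histones package DNA into nucleosomes, built from H2A, H2B, H3 and H4, with linker H1 on the DNA between them. Most histone protein for new chromatin is made in S phase from genes that lie in clusters, have no introns and give mRNAs that end in a conserved stem-loop in place of a poly(A) tail. Preleptotene is the last S phase before meiosis. The replacement histones H2A.X, H2A.Z and H3.3, from H2afx, H2afz, H3f3a and H3f3b, are made outside S phase as well and from polyadenylated mRNA. The testis also uses its own clustered genes: Hist1h1t for the linker histone H1t, known from pachytene spermatocytes, and Hist1h2ba and Hist1h2aa for the testis forms of H2B and H2A. The libraries were made from poly(A) RNA, so that an mRNA ending at the stem-loop would be captured poorly, and the counts below are not a measure of all histone mRNA in these cells.

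The stem-loops are shown because they divide the genes by how their mRNA can end. The motif searched on the coding strand was GG, any 2 bases, CTT, any base, T, any base, A, any 3 bases and CC. Within 150 bases after any annotated stop codon it was found in 63 of the 67 clustered genes with an annotated stop codon (94.0%) and in 20 of 21863 genes outside the clusters (0.0915%), of which H2afx was 1. Genome and gene models were those of GENCODE release M1 on NCBIM37, the build also called mm9. In the stretches that follow, written 5′ to 3′ as DNA, capitals mark the stem-loop and the lower case letters its flanks.

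Hist1h1a: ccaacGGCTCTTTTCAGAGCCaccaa

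Hist1h1t: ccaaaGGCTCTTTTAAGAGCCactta

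Hist1h2ba: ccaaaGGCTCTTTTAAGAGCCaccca

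Hist1h2aa: aaaaaGGCTCTTTTCAGAGCCacctt

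Hist1h2bc: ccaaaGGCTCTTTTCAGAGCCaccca

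Hist1h1c: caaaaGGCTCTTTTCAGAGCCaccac

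Hist1h4c: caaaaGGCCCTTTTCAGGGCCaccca

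H2afx: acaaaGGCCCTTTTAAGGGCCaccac

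The form of Hist1h1a and Hist1h2bc was the most common, with 39 genes, all of them for H1, H2A, H2B or H3. The form of the testis genes Hist1h1t and Hist1h2ba was found in 9 genes and that of Hist1h4c in 8, all of them H4 genes. Among the clustered genes with a stop codon, Hist1h2an, Hist1h2al, Hist2h2be and Hist2h2bb had no match, and neither did H3f3a, H3f3b or H2afz, which says only that these letters were not in the window searched. Hist1h2al, on chr13:51298057-51298434, also lies 27271336 bases from the nearest other Hist1 gene, so that its symbol rather than its position makes it a clustered gene.

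The length annotated past the stem-loop varied. Hist3h2a (1487 exonic bases past it), Hist1h1c (839), H2afx (816), Hist1h2bc (313, in part in another exon) and Hist1h1t (179) had models that run on past it, while the models of Hist1h2ba and Hist1h2aa stopped before their stem-loops and that of Hist1h1a 7 bases after. Of the 21 clustered genes with at least 100 exonic bases past the stem-loop, 7 had 30 reads or more over all libraries, against 12 of the 42 with fewer bases past it.

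The clustered genes gave few reads, and a few genes gave most of them. The 53 genes summed to 4524 reads over the 9 libraries, whereas the 4 replacement genes gave 268974. The 10 clustered genes with 100 or more reads held 76.1% of the clustered reads, 27 genes had 10 to 99 and 16 had fewer than 10. Per kilobase of exon, H3f3b stood highest with a mean of 533 CPM (reads scaled to a common library size, adjusted by TMM) in In/B, 271 in RA-sufficient PL and 457 in RA-deficient PL. H2afz followed with 26.8, 31.6 and 38.4 CPM per kb, H3f3a with 36.9, 14.2 and 8.33, and H2afx with 12.002, 16.4 and 12.1. The highest clustered genes on this scale were the testis H2B gene Hist1h2ba with 1.95, 11.2 and 10.3 CPM per kb and the linker gene Hist1h1a with 2.58, 5.81 and 6.31.

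The clustered genes differed in how much of their sequence is unique, and the part of near-identical copies in their counts was not tested. Of all 75-base windows in the exons (the read length), a median of 58.2% per clustered gene occurred once in the genome. The median was 65.6% for genes with reads and 24.9% for the 16 without. The 6 genes with no unique window were Hist1h2br, Hist1h2bq, Hist1h2ao, Hist1h2ap, Hist2h2aa1 and Hist2h2aa2, and all 6 had 0 reads. Hist1h2ac was different, with 2175 of 2408 windows unique and 0 reads in every library, although its divergent partner Hist1h2bc had 317 reads. How reads with several matches were counted is not given in the sources used here, and values of genes with few unique windows, such as Hist1h2al (47.4%) and Hist1h2bc (50.3%), are uncertain in that respect.

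**Figure D1:**
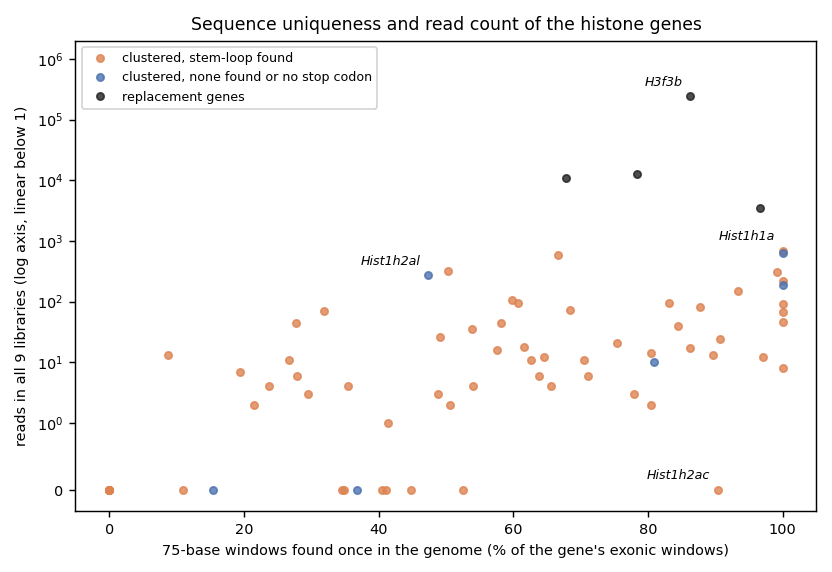
Reads summed over all 9 libraries (log axis, linear below 1) against the percentage of a gene's exonic 75-base windows that occur once in the genome, with 1 point per gene. The 6 genes at 0% share the point at 0 reads, Hist1h2ac has 0 reads at 90.3%, and the 4 replacement genes lie above all clustered genes.

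Library totals ranged from 16872425 to 26684393 reads in In/B, from 12612959 to 21833333 in RA-sufficient PL and from 25048240 to 27042274 in RA-deficient PL. A count of 0 allows up to 3 reads, or 0.111 to 0.238 CPM depending on the library, for counting error alone. RA-deficient replicate 3 stood apart, with a correlation of log2 CPM of 0.89 with each of the other 2 libraries of its group, against 0.95 to 0.99 within all other pairs. The labels fitted the germ cell markers in part. The 6 early meiotic genes summed to 315 to 664 CPM in In/B and to 1884 to 2492 CPM in both PL groups, and the 6 spermatogonial genes to 3531 to 5263 CPM in In/B. The latter stood at 638 to 869 CPM in RA-sufficient PL, with 5 of 6 called lower than in In/B (19.3% of all genes). In RA-deficient PL they stood at 1467 to 3297 CPM, with 0 called lower and 1 higher than in In/B (11.8% and 11.4% of all genes). Between the PL groups all 6 were called higher in RA-deficient PL (4.47% of all genes). Their part in the histone differences was not tested. Of the 6, Kit had 561, 521 and 20.3 CPM in RA-deficient replicates 1, 2 and 3. Kit stood at 327 to 404 CPM in In/B and at 20.2 to 41.0 CPM in RA-sufficient PL. Sohlh1 had 60.8, 65.2 and 16.3 CPM in the RA-deficient libraries, so that replicate 3 lay nearer to RA-sufficient PL for both genes. The 7 Sertoli cell markers, none of them at 0, summed to 66.3 to 342 CPM in In/B, 2789 to 3618 CPM in RA-sufficient PL and 286 to 503 CPM in RA-deficient PL. These markers were thus highest in RA-sufficient PL, and their part in the differences between that group and the others was not tested. In sorted cells sequenced in bulk, a change in the mix of cells and a change in RNA per cell cannot be told apart.

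In these poly(A) libraries, the summed level of the clustered histone genes was higher in both PL groups than in In/B. The summed level was 4.36, 11.5 and 9.38 CPM in In/B, 55.7, 27.0 and 40.2 CPM in RA-sufficient PL and 16.2, 36.1 and 23.9 CPM in RA-deficient PL. Every PL library lay above every In/B library, and the PL groups overlapped. The mean log2 difference from In/B was 2.34 (5.06-fold) for RA-sufficient PL and 1.63 (3.10-fold) for RA-deficient PL, each with p = 0.1 in an exact two-sided permutation test, the smallest p that 3 against 3 libraries allow. Between the PL groups it was -0.71 for RA-deficient against RA-sufficient PL (exact permutation p = 0.2).

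**Figure D2:**
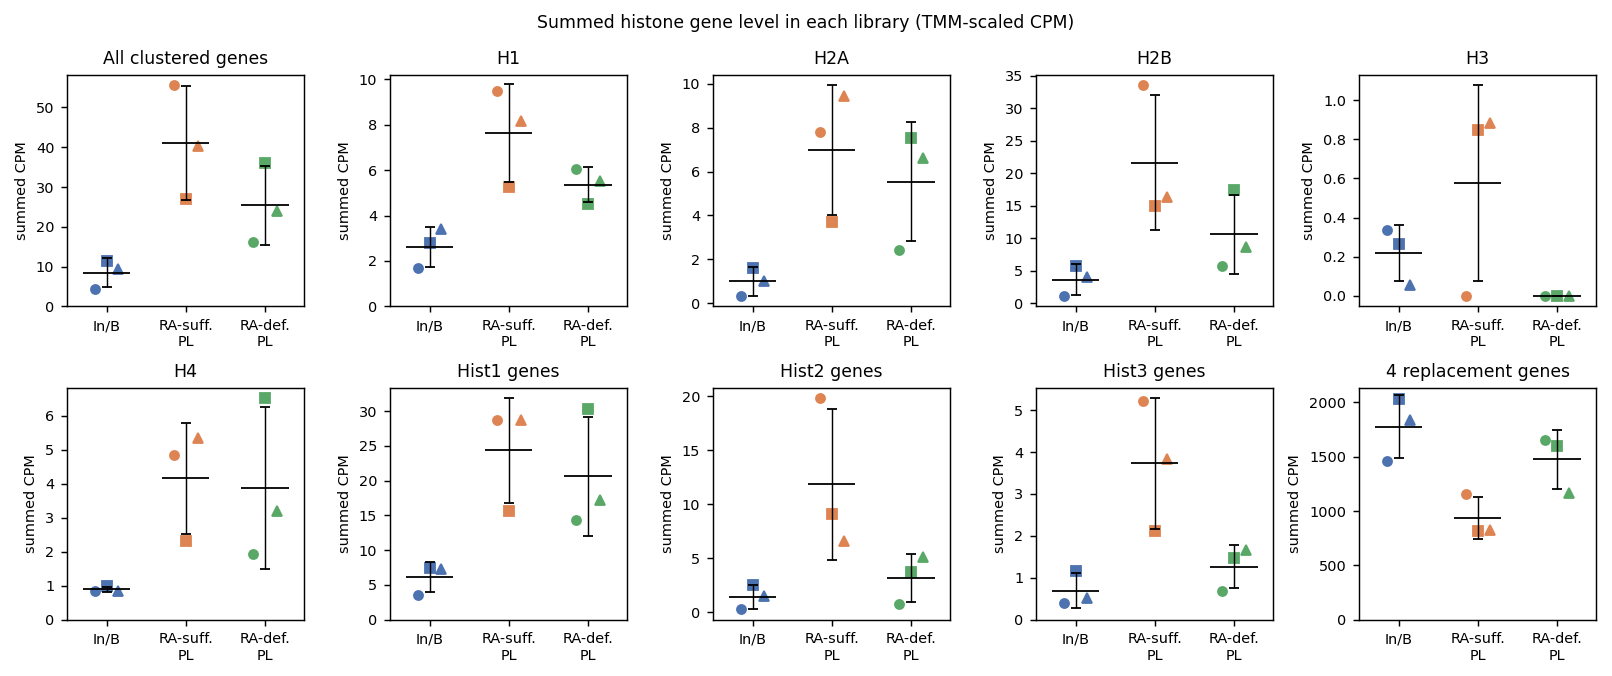
Summed TMM-scaled CPM per library for all clustered genes, for each histone class, for 3 of the clusters and for the 4 replacement genes, with circles, squares and triangles for replicates 1, 2 and 3, and bars at the mean ± SD (n = 3). All clustered genes together lie at 4.36 to 11.5 CPM in In/B and at 16.2 to 55.7 CPM in the PL libraries, while the replacement genes lie lowest in RA-sufficient PL.

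By class, the H2B genes had the highest mean sum in each group, with 3.68 ± 2.33 CPM in In/B, 21.6 ± 10.4 in RA-sufficient PL and 10.6 ± 6.09 in RA-deficient PL (SD, n = 3). H2A genes stood at 0.993 ± 0.645, 6.98 ± 2.96 and 5.52 ± 2.71 CPM and linker H1 genes at 2.62 ± 0.870, 7.64 ± 2.16 and 5.35 ± 0.772 CPM. H4 genes stood at 0.890 ± 0.0808, 4.17 ± 1.63 and 3.88 ± 2.39 CPM. For these 4 classes every PL library lay above every In/B library (exact permutation p = 0.1 each), and the PL groups overlapped. For H2B this was only just so, with 5.80 CPM in RA-deficient replicate 1 and 5.78 CPM in In/B replicate 2. The 12 H3 genes were barely seen, at 0.0565 to 0.335 CPM in In/B, 0, 0.849 and 0.882 CPM in RA-sufficient PL and 0 in all 3 RA-deficient libraries.

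By cluster, the Hist1 sums of the PL groups overlapped and the Hist2 and Hist3 sums did not. The 55 Hist1 genes on chromosome 13 summed to 28.7, 15.6 and 28.8 CPM in RA-sufficient PL and to 14.4, 30.3 and 17.2 CPM in RA-deficient PL, a log2 difference of -0.26 (exact permutation p = 0.7). The 10 Hist2 genes on chromosome 3 summed to 19.8, 9.09 and 6.62 CPM in RA-sufficient PL, all above the 0.760, 3.72 and 5.07 CPM of RA-deficient PL (log2 difference -2.13, exact permutation p = 0.1). The 3 Hist3 genes on chromosome 11 had 5.23, 2.12 and 3.84 CPM against 0.680, 1.47 and 1.66 CPM and did not overlap either (log2 difference -1.56, exact permutation p = 0.1). Single genes held most of these sums in RA-sufficient PL: Hist2h2be had a mean of 9.31 of 11.8 CPM and Hist3h2a 3.47 of 3.73 CPM. In In/B the Hist2 genes had 0.280, 2.495 and 1.47 CPM and the Hist3 genes 0.391, 1.17 and 0.509 CPM, so that the RA-deficient libraries overlapped In/B for both clusters.

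Detection differed between the PL groups in another way. Of the 53 clustered genes, 33, 33 and 42 had a read in the RA-sufficient PL libraries but 18, 22 and 18 in the RA-deficient PL libraries (difference -16.7 genes, exact permutation p = 0.1), although the latter had more reads in total. In/B had 21, 35 and 23. The RA-deficient libraries also had fewer genes with a read in the whole table (14769 to 15327) than RA-sufficient PL (17541 to 18434) and In/B (16758 to 18002), and the part of this in the histone counts was not tested. Genes with at least 10 reads did not follow this order, with 13, 10 and 19 in RA-sufficient PL and 11, 17 and 14 in RA-deficient PL.

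In the RA-deficient libraries many genes were present in a library or missing from it. Of the 22 clustered genes with 10 or more reads in an RA-deficient library, 13 had 0 reads in at least 1 other library of that group. This compares with 3 of 21 in RA-sufficient PL and 0 of 8 in In/B. The share of all genes with such counts was not determined, so that the pattern is not shown to be particular to histone genes. The H4 gene Hist1h4c had 0, 65 and 0 reads in RA-deficient replicates 1, 2 and 3, and 18, 0 and 6 in RA-sufficient PL. The H4 gene Hist1h4d had 0, 41 and 0 reads in RA-deficient PL, and 1, 8 and 32 in RA-sufficient PL. Hist2h4, also an H4 gene, had all 31 of its RA-deficient reads in replicate 3.

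**Figure D3:**
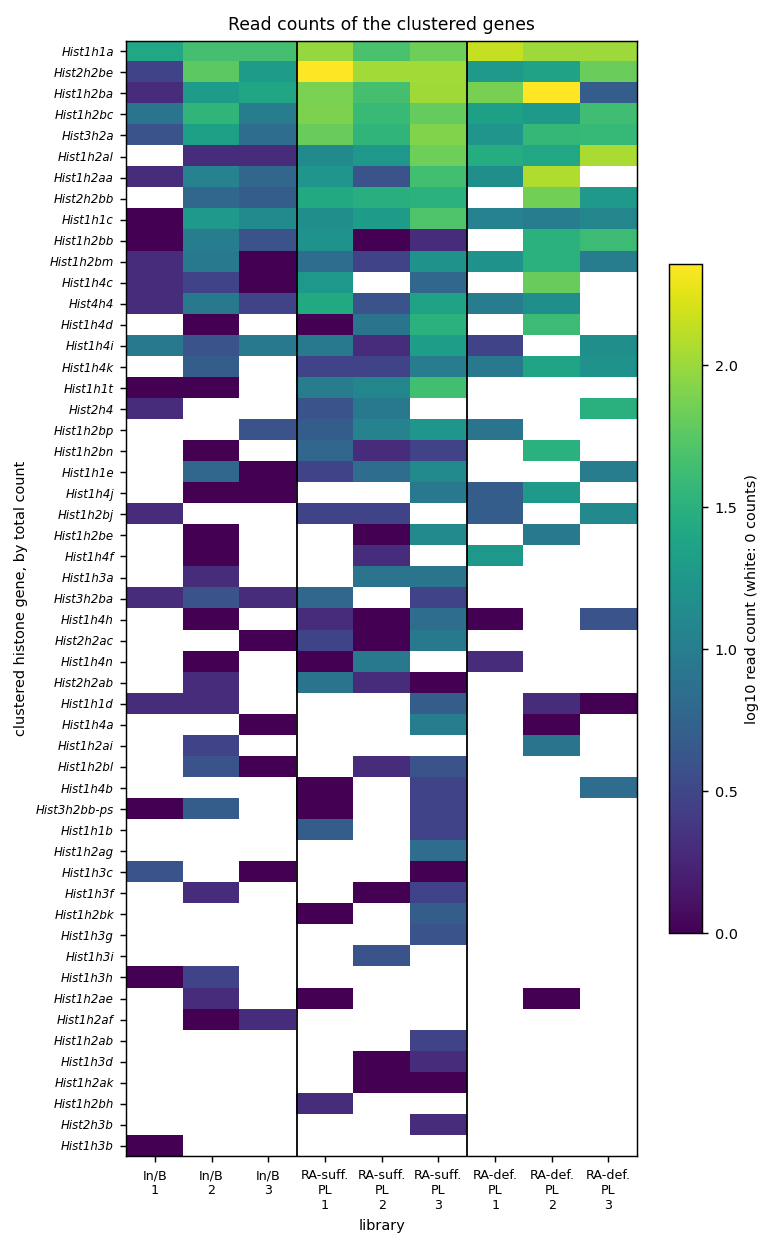
Read counts (log10 colour scale, white for 0) of the 53 clustered genes with any read, ordered by their total, in the 9 libraries. The 3 RA-deficient columns have 18 to 22 genes with a read, against 33 to 42 in RA-sufficient PL and 21 to 35 in In/B, and some genes there have many reads in a single library.

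From In/B to RA-sufficient PL, 8 of the 9 clustered genes tested were called higher, among them linker, testis and H2B genes, while H3f3a fell. Only 13 of the 57 genes passed the filter on low counts (edgeR's filterByExpr), 9 of them clustered, and a clustered gene low in In/B could pass through its PL level, so that this set leans towards genes that were higher there. Of the genes tested, 8 were called higher and 1 lower (absolute log2 fold change above 1 and adjusted p below 0.05, quasi-likelihood test of edgeR, p-values adjusted by Benjamini-Hochberg over 15001 genes). Over all genes tested 26.1% were called higher and 19.3% lower. The median log2 fold change was 2.84 over the 9 clustered genes and 0.04 over all genes. Across all clustered genes, untested ones included, 14 had all RA-sufficient PL libraries above all In/B libraries and 0 the opposite. These 14 are 26.4% of the 53 clustered genes, near the 29.9% of all 20236 genes with a read that lay above In/B in this way, while 28.1% of all genes lay below.

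Hist1h1t had 1, 1 and 0 reads in In/B and 10, 12 and 44 in RA-sufficient PL. The ratio of the pooled counts was 38.8 (95% exact interval 10.3 to 327, counting error only), with an adjusted p of 0.00122. Other genes known from pachytene spermatocytes were also higher in RA-sufficient PL. The 4 such markers summed to 31.5 to 81.7 CPM in In/B and 227 to 867 CPM in RA-sufficient PL, with 3 of 4 called higher (26.1% of all genes). Within RA-sufficient PL, Ldhc (562, 183 and 171 CPM) and Pgk2 (33.9, 21.2 and 15.6 CPM) were highest in replicate 1, and Hist1h1t in replicate 3.

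The testis H2B gene Hist1h2ba had 0.112, 0.756 and 1.41 CPM in In/B and 5.67, 2.79 and 4.63 CPM in RA-sufficient PL, with no overlap. Its log2 fold change was 2.57 ± 0.69 (SE, adjusted p = 0.0101). With all 9 libraries in 1 fit its call was lost (adjusted p = 0.0840). Hist1h2aa, the testis H2A gene beside it, had 0.112, 0.416 and 0.339 CPM and 1.25, 0.243 and 1.94 CPM, and did not pass the filter. Its groups overlapped, through RA-sufficient replicate 2.

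Hist2h2be, an H2B gene on chr3:96025044-96027661 whose model of a single 2618-base exon is made of unique windows throughout, had 0.168, 2.19 and 1.13 CPM in In/B and 16.7, 6.55 and 4.68 CPM in RA-sufficient PL. The log2 fold change was 3.01 ± 0.77 (adjusted p = 0.00785), and it was the clustered gene with the most reads in all 3 RA-sufficient PL libraries. Hist2h2bb, an H2B gene of the same cluster, had 0, 0.227 and 0.283 CPM and then 1.99, 1.82 and 1.41 CPM (3.33 ± 0.75, adjusted p = 0.00413, and 0.0915 with all 9 libraries in 1 fit).

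Hist1h1a, for the linker histone H1.1, had 1.45, 1.74 and 2.60 CPM in In/B and 7.07, 2.91 and 3.04 CPM in RA-sufficient PL. The groups did not overlap, but 2 of the RA-sufficient libraries lay just above In/B, and the call was near the threshold (1.22 ± 0.47, adjusted p = 0.0476). It was lost with 3 of the 6 libraries left out in turn (adjusted p = 0.184 without RA-sufficient replicate 1) and with all 9 libraries in 1 fit (0.0738). The call was also lost with the replicate block (0.121) and in a test against a fold change of 2 (0.345). Under both other scalings and with no filter it was lost narrowly (0.0502 to 0.0515). The linker gene Hist1h1c, at 0.0559, 0.718 and 0.735 CPM and then 1.10, 1.21 and 2.25 CPM, was not called (1.64 ± 0.73, adjusted p = 0.0761).

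The remaining clustered genes called higher were Hist1h2al (0, 2 and 2 reads, then 13, 18 and 68, log2 fold change 4.66 ± 0.86), the H2A gene Hist3h2a (2.84 ± 0.57) and the H2B gene Hist1h2bc (2.23 ± 0.57). Hist3h2a shares exonic bases with Trim17 on the same strand, so that its counts are uncertain.

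The replacement genes moved less and not together. H3f3a, for H3.3, fell from 134, 135 and 118 CPM in In/B to 55.0, 51.2 and 43.6 CPM in RA-sufficient PL, by 1.32 ± 0.14 on the log2 scale (adjusted p = 7.49e-05). Some of its exons overlap genes on the opposite strand, and whether strand was used in counting is not given in the sources used here. H3f3b, which encodes the same protein, had 1283, 1821 and 1652 CPM in In/B and 1033, 698 and 687 CPM in RA-sufficient PL, with no overlap. Its log2 fold change of -0.92 ± 0.19 had an adjusted p of 0.00271 but a size below the threshold. H2afz (0.30 ± 0.21, adjusted p = 0.242) and H2afx (0.51 ± 0.25, adjusted p = 0.105), whose phosphorylated product marks DNA breaks, were not called.

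**Figure D4:**
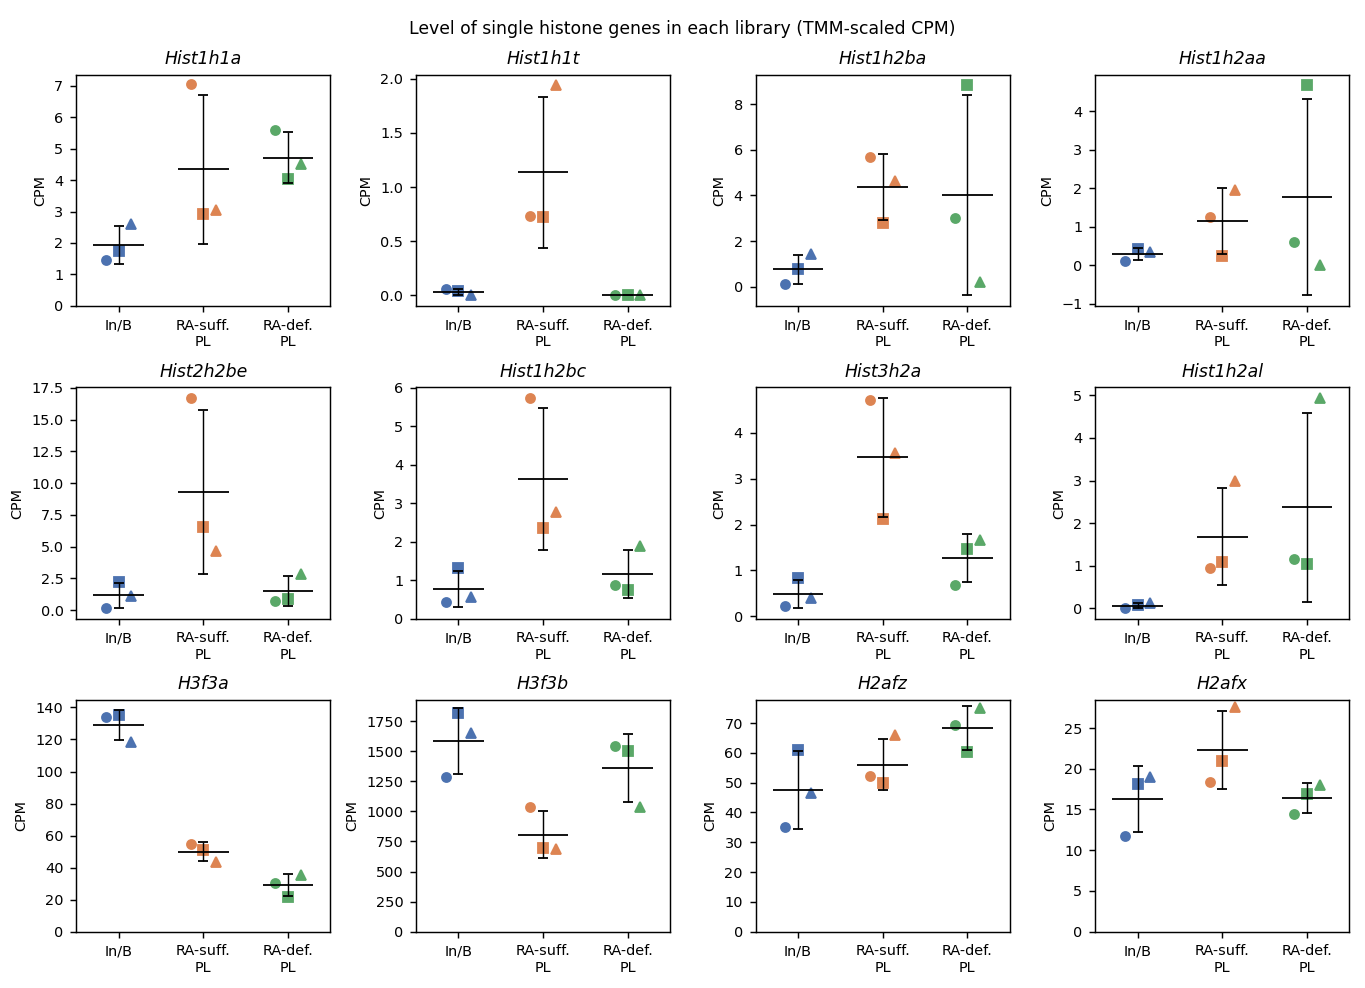
TMM-scaled CPM of 12 histone genes in each library, with circles, squares and triangles for replicates 1, 2 and 3, and bars at the mean ± SD (n = 3); each panel has its own axis. Hist2h2be, Hist1h2bc, Hist3h2a and Hist1h1t are highest in RA-sufficient PL, the PL libraries of Hist1h1a and Hist1h2al all lie above In/B, and those of H3f3a all lie below.

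From In/B to RA-deficient PL, H3f3a fell and Hist1h2al rose, and no other gene was called. Of 14 genes tested, 10 of them clustered, 1 was called higher and 1 lower, against 11.4% and 11.8% of the 14877 genes tested (edgeR). The median log2 fold change was 1.501 over the clustered genes tested and 0.00 over all genes, and here too a gene low in In/B could pass the filter through its PL level. Scaled by library size alone, the median over all genes shifted by -0.32, and calls were higher in 28.9% of cases, against 49.1% with TMM, while the same number of histone genes was called in each direction. Of the clustered genes, 4 lay above In/B in all RA-deficient libraries (7.55%) and 1, Hist3h2ba, below (1.89%), against 15.7% and 27.6% of all genes with a read.

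H3f3a had 30.5, 21.6 and 35.5 CPM in RA-deficient PL, a fall by 1.98 ± 0.20 on the log2 scale against In/B (adjusted p = 0.000292). It fell in every fit tried. H3f3b had a log2 fold change of -0.05 ± 0.18 (adjusted p = 0.861) and H2afx of 0.18 ± 0.27 (adjusted p = 0.642). H2afz reached the p threshold but not the fold threshold (0.69 ± 0.21, adjusted p = 0.0338), and its libraries overlapped those of In/B. Hist1h2al had 29, 26 and 113 reads in RA-deficient PL against 0, 2 and 2 in In/B. The ratio rests on these few In/B reads (fitted log2 fold change 5.27 ± 1.26, adjusted p = 0.0133), and without In/B replicate 2 the adjusted p was 0.0638.

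Hist1h1a had 5.60, 4.04 and 4.50 CPM in RA-deficient PL, all above the In/B libraries, but missed the threshold narrowly (1.45 ± 0.49, adjusted p = 0.0515). The testis pair varied widely within the group: Hist1h2ba had 3.00, 8.84 and 0.219 CPM and Hist1h2aa 0.600, 4.68 and 0 CPM, both lowest in replicate 3. Their log2 fold changes were 2.57 ± 1.28 (adjusted p = 0.159) and 2.75 ± 1.64 (adjusted p = 0.234). Without replicate 3, which stood apart and had the lowest Kit level of its group, 4 genes were called higher in place of 1. They were Hist1h2al (4.16), Hist1h2aa (3.33), Hist1h2ba (3.13) and Hist1h1a (1.49), with adjusted p of 0.0236, 0.0321, 0.0215 and 0.0387.

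Both genes of the testis pair lie on chromosome 13 and are read away from each other, with 305 bases between their annotated starts. The middle of this stretch, chr13:24026076-24026280 (mm9, plus strand), is shown because Hist1h2ba and Hist1h2aa were low and high in the same RA-deficient libraries. Capitals mark CCAAT and TATAAA on either strand, so that ATTGG and TTTATA are their reverse complements.

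Hist1h2ba-Hist1h2aa: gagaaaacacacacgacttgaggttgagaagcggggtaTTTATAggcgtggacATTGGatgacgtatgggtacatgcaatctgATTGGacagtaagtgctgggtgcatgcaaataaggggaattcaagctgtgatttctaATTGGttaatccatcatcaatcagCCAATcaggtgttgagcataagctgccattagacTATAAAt

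It holds 4 CCAAT and 2 TATAAA motifs. Of 22380 regions of the same length before annotated gene starts, 29.6% hold CCAAT and 8.91% TATAAA. All 13 pairs of neighbouring divergent histone genes set apart by up to 305 bases, the distance of the testis pair, hold 2 to 5 CCAAT between their starts. TATAAA lies in 5 of the 13. CCAAT is thus not particular to the testis pair. Among the 13 pairs, total reads were often unequal, as with Hist2h2ac (14) and Hist2h2be (630), and for the testis pair they were 578 for Hist1h2ba and 217 for Hist1h2aa.

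Between RA-deficient and RA-sufficient PL, Hist1h1t and Hist2h2be were called. Of 20 genes tested, 16 of them clustered, 0 were called higher and 2 lower, against 4.47% and 11% of the 15352 genes tested (edgeR), so that the share called lower was near that of all genes. The other 37 of the 57 histone genes were not tested. A gene low in 1 PL group could pass the filter through its level in the other. Hist1h1t passed it through RA-sufficient PL alone. At an unadjusted p below 0.05, 1 was higher (H3f3b) and 4 lower, and DESeq2 also called 0 higher. The median log2 fold change was -0.39 over the clustered genes and -0.09 over all genes. With scaling by library size alone the median over all genes shifted by -0.18, and 17.5% of calls were higher, against 28.8% with TMM. Over all clustered genes, 8 lay below every RA-sufficient library in all RA-deficient libraries (15.1%) and 0 above, against 24.4% and 15.5% of all genes with a read. These were Hist1h1t, Hist1h1c, Hist1h2bc, Hist1h2bp, Hist2h2ab, Hist2h2ac, Hist2h2be and Hist3h2a.

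Hist1h1t had 0 reads in each RA-deficient library against 10, 12 and 44 in RA-sufficient PL. Taking 3 reads over the RA-deficient group as the floor, for counting error only, it was at least 30.5-fold lower (adjusted p = 0.0238, edgeR). Without RA-sufficient replicate 3, which held 44 of the 66 reads, this bound was 17.8-fold. Spread between libraries is not in these bounds, and other clustered genes had 0 reads in 1 RA-deficient library and many in another. The summed pachytene markers were also lower, at 5.08 to 136 CPM in RA-deficient PL, although 0 of the 4 was called between the PL groups. Ldhc, 1 of the 4, had 0.800, 1.74 and 89.8 CPM in RA-deficient replicates 1, 2 and 3. Hist2h2be had 0.760, 0.911 and 2.89 CPM in RA-deficient PL, all below the 4.68 to 16.7 CPM of RA-sufficient PL, and fell by 2.64 ± 0.76 on the log2 scale (adjusted p = 0.0428). Both calls were lost whenever any RA-sufficient library was left out (adjusted p from 0.0645 to 0.165), and that of Hist2h2be also without RA-deficient replicate 1 or 2 (0.107 and 0.110). Without RA-deficient replicate 3, Hist1h2bc was also called lower (-2.13, adjusted p = 0.0359). All 7 Sertoli markers were lower in RA-deficient PL.

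Genes with the same direction but no call were Hist1h2bc (-1.65 ± 0.68), Hist3h2a (-1.46 ± 0.64) and Hist1h1c (-1.73 ± 0.78), with adjusted p of 0.123 to 0.149. For others the estimates lay near 0, or had errors too wide to place them: Hist1h1a 0.10 ± 0.51, Hist1h2ba -0.12 ± 1.03, Hist1h2aa 0.62 ± 1.58 and Hist1h2al 0.50 ± 0.86. Hist1h1a, with 7.07, 2.91 and 3.04 CPM in RA-sufficient and 5.60, 4.04 and 4.50 CPM in RA-deficient PL, overlapped fully. Of the replacement genes, H3f3b had 1543, 1501 and 1039 CPM in RA-deficient PL, against 687 to 1033 CPM in RA-sufficient PL. All 3 lay above that range, replicate 3 only just, and the gene was not called (0.74 ± 0.23, adjusted p = 0.0568). H3f3a lay below RA-sufficient PL and was not called either (-0.78 ± 0.24, adjusted p = 0.0508). H2afz (0.28 ± 0.17) and H2afx (-0.44 ± 0.24) were not called.

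**Figure D5:**
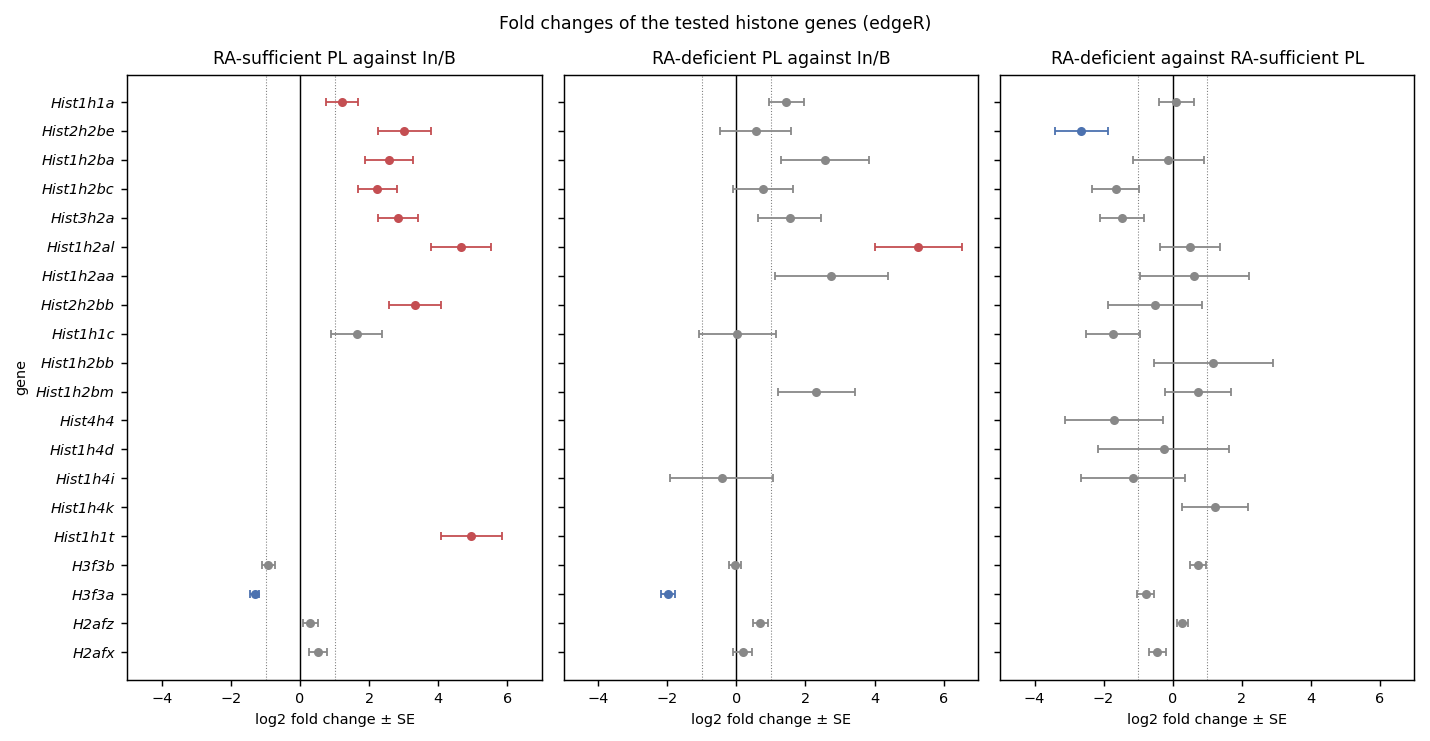
Log2 fold changes ± SE from edgeR of the histone genes tested in each comparison, positive where the first-named group is higher, red where called higher, blue where called lower and grey where not called, with dotted lines at 1 and -1. Hist1h1t is left out of the right panel because it has 0 reads in RA-deficient PL, and the other gene called there is Hist2h2be.

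Of 21 genes for histone mRNA 3′ end processing and decay, 4 were called higher and 1 lower from In/B to RA-sufficient PL (26.1% and 19.3% of all genes), 6 higher and 3 lower from In/B to RA-deficient PL (11.4% and 11.8% of all genes), and 0 in either direction between the PL groups. Zfp473, whose product binds the U7 particle that cuts at the stem-loop, rose by 3.00 ± 0.30 and 2.70 ± 0.57 on the log2 scale in RA-sufficient and RA-deficient PL, and Sympk, a scaffold of the cleavage complex, by 1.74 ± 0.18 and 1.84 ± 0.14. Slbp, the protein that binds the stem-loop, had log2 fold changes of -0.50 ± 0.11 and 0.46 ± 0.11, which did not reach the fold threshold. Npat, the coactivator of clustered histone genes, had 0.52 ± 0.11 in RA-sufficient PL, below the threshold, and rose by 1.23 ± 0.11 in RA-deficient PL. Casp8ap2, which works at the same sites, had 0.52 ± 0.19 and rose by 1.47 ± 0.25. Lsm10 and Lsm11, of the U7 particle, were not called in any comparison.

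Of 24 histone chaperones, 1 was higher and 6 lower in RA-sufficient PL against In/B, 3 higher and 3 lower in RA-deficient PL, and 0 called between the PL groups, beside the same shares of all genes. Chaf1b, a subunit of the chromatin assembly factor that deposits histones on new DNA, rose in both (1.02 ± 0.24 and 1.21 ± 0.23), and its partner Chaf1a had -0.96 ± 0.11 and -0.90 ± 0.15, below the fold threshold. Nasp, a carrier of H3 and H4, had 0.17 ± 0.10 and 0.65 ± 0.10. Mcm2, of the replicative helicase, fell by 2.63 ± 0.16 in RA-sufficient PL.

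The S phase genes did not follow the clustered histones. Of 42 genes for DNA replication and S phase, 0 were higher and 19 lower in RA-sufficient PL against In/B (26.1% and 19.3% of all genes). Their median log2 fold change was -0.90, and 0.04 over all genes. In RA-deficient PL against In/B, 4 were higher and 9 lower (11.4% and 11.8% of all genes), and the median of the 42 was -0.42. Between RA-deficient and RA-sufficient PL, 2 were higher and 0 lower (4.47% and 11% of all genes), with a median of 0.55 for the 42. Their summed level was 7801 to 8435 CPM in In/B, 3980 to 5417 CPM in RA-sufficient PL and 7361 to 8239 CPM in RA-deficient PL. Rrm2, a subunit of the enzyme that makes deoxyribonucleotides, was 1.58 ± 0.17 higher in RA-deficient than in RA-sufficient PL.

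Other histone variants outside the clusters fell or rose singly. Of the 8 tested, 3 were lower and 0 higher in RA-sufficient PL against In/B (19.3% and 26.1% of all genes). Among the 3 was Cenpa, the H3 variant of centromeres. It fell by 3.14 ± 0.36 there and by 3.05 ± 0.27 in RA-deficient PL. H2afv, a relative of H2afz, was another (-1.71 ± 0.16). Between the PL groups H1fx, a linker histone gene, was higher in RA-deficient PL (1.55 ± 0.33) and H2afy, for macroH2A, was lower (-1.05 ± 0.21). RNAs that normally lack a poly(A) tail, such as small nuclear and nucleolar RNAs, summed to 88.0 to 97.2 CPM in In/B, 35.8 to 53.3 CPM in RA-sufficient PL and 37.0 to 85.9 CPM in RA-deficient PL. Their part in the histone differences was not tested.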

How the data were processed

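For 9 libraries, a table of gene counts without normalization was deposited. Per the authors' methods, stranded poly(A) libraries were sequenced as single 75-base reads, trimmed with cutadapt 1.9, aligned to mm9 with STAR 2.5.2b and counted with featureCounts. The annotation, strand setting and treatment of reads with several matches are not given in the sources used here.

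All genes were fitted with edgeR 4.0.16 in R 4.3.3 (TMM, filterByExpr, quasi-likelihood test, Benjamini-Hochberg), in pairs of groups. The tests were checked on simulated counts. DESeq2 1.42.0, other scalings and filters, a replicate block and the omission of each library were alternatives. CPM are scaled by TMM over all 9 libraries. Sums were compared by exact two-sided permutation. Exonic 75-base windows were looked up on both strands of the genome.

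The members and lists were chosen with earlier results of these data known. Named by rule were the 4 replacement genes, Hist1h1t, Hist1h2ba, Hist1h2aa, Hist1h1a, the top 5 by mean CPM per group and called members of at least 5 CPM, with 8 context genes and the 2 largest calls per list. All other members named were chosen after their values were seen.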

Additional observations from a re-analysis of the deposited data

How the results depend on the processing

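From In/B to RA-sufficient PL, 8 histone genes were called higher, 2 with a mean count of at least 50, 5 with all 9 libraries in 1 fit and 7 to 10 with a library left out, while 1 was called lower, 2 with the adjusted p alone and 1 to 2 with a library left out. From In/B to RA-deficient PL, 1 was called higher, 2 with DESeq2 and with the adjusted p alone, 0 at an adjusted p of at most 0.01 and 0 to 4 with a library left out. Between the PL groups, 2 were called lower, 1 with a mean count of at least 50, 0 at an adjusted p of at most 0.01, 0 in a test against a fold change of 2 and 0 to 3 with a library left out. The replicate block gave 7, 1 and 0 histone genes called higher and 1, 1 and 0 called lower in the 3 comparisons. Same-numbered libraries deviated together in no consistent way (correlations -0.25 to 0.12), so that the numbers were not taken to pair the samples. The summed clustered level kept its direction in every fit, at 1.92 to 2.62, 1.22 to 1.92 and -0.997 to -0.42 on the log2 scale with a library left out.

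The sign changed only for genes that were not called. By library size alone these were, in RA-deficient PL against In/B, Hist1h1c (-0.28) and H2afx (-0.13), and between the PL groups Hist1h1a (-0.073). With all 9 libraries in 1 fit it was Hist1h1c (-0.11), and with the replicate block Hist1h2aa between the PL groups (-1.004). With a library left out, values in RA-deficient PL against In/B ranged from -0.18 to 0.12 for H3f3b, -2.42 to 0.12 for Hist1h4i, -0.50 to 0.40 for Hist1h1c, -0.29 to 1.35 for Hist2h2be and -0.0068 to 0.31 for H2afx. Between the PL groups they ranged from -6.76 to 0.93 for Hist1h4d, -0.13 to 0.68 for Hist1h1a, -1.42 to 0.45 for Hist1h2ba, -1.90 to 1.20 for Hist1h2aa, -0.62 to 1.17 for Hist1h2al and -2.04 to 0.081 for Hist2h2bb. The causes were not tested. Of the 57 genes, 44, 43 and 37 did not pass the filter on low counts in the 3 comparisons.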
